A study of Macaca mulatta with 28 samples.

Results

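The GABA and glycine synapse genes described here are 29 genes listed by symbol: the enzymes that make and break down GABA, its vesicular and plasma membrane transporters, receptor subunits for GABA and glycine, the glycine transporters, and a pair of postsynaptic scaffold and adhesion proteins. All 29 were found among the 16885 entries with a gene symbol in the deposited count table of the macaque ventral tegmental area (VTA). The rule that picks them uses no measured value, but the list was drawn up with earlier results of these data known. Mesolimbic dopamine neurons have their cell bodies in the VTA, a part of the midbrain, and a single tissue punch was sequenced from each of 28 rhesus macaques (Macaca mulatta), all wild type males aged about 7 to 8 years. Of these, 17 animals were induced to drink alcohol and then drank by choice over 12 months of open access. Per the study's methods, 2 further access periods of 3 months each came after that, with about 30 days of forced abstinence before each of them and again before necropsy. The drinkers were classed by intake as Low (1 animal), Binge (2), Heavy (5) or Very Heavy (9). The other 11 animals were controls, either yoked to drinkers for calories or kept as housing controls, and the labels do not say which animal was which.

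The animals came from 2 cohorts of unequal makeup, which the study's source data assign. Cohort 1 held 8 controls and 8 drinkers (1 Low, 4 Heavy, 3 Very Heavy), and cohort 2 held 3 controls and 9 drinkers (2 Binge, 1 Heavy, 6 Very Heavy). Category and cohort therefore overlapped in part, and every comparison of arms below is given within each cohort as well. Library totals lay between 12303915 and 27338673 estimated counts, and mitochondrial transcripts held 36.4% to 60.6% of them, with medians of 46.3% in controls and 49.1% in drinkers. These totals lie well below the sequencing depth that a figure legend of the study gives, for a reason not given in the sources used here. The punches differed widely in their dopamine neuron content: the summed level of 13 dopamine neuron markers ran from 44.8 to 1955 CPM (counts scaled to library totals adjusted by TMM, the trimmed mean normalization of edgeR), and TH from 83 to 18843 counts. Serotonin neuron markers were sparse, with FEV at 0 in 27 animals, SLC6A4 at 0 in 23 animals and TPH2 at 0 in 4 animals, with a median of 6.5 and up to 172 counts. The table gives 1 Ensembl transcript for each gene symbol, so a gene listed at 0 may still have had reads on transcripts that are not part of its value. SLC1A2, a defining astrocyte transporter, was at 0 in all 28 animals, ALDH1L1, another astrocyte marker, in 26 and RBFOX3, a general neuron marker, in 27. The astrocyte and general neuron scores used below therefore rest on the other genes of their lists. AQP4 was at 0 in 18 animals and remained 1 of the 6 markers in the astrocyte score.

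Inhibition of VTA neurons runs mainly through GABA. Local GABA neurons and incoming fibres make GABA with the glutamate decarboxylases, load it into vesicles through a shared GABA and glycine transporter, and release it onto GABA-A receptors, which are chloride channels built from several subunits, and onto GABA-B receptors, which signal through G proteins. Astrocytes and neurons then take GABA up and degrade it. Glycine receptors are chloride channels of the same superfamily and dominate in spinal cord and brainstem. GABAergic control of the VTA is a long-studied site of alcohol action, and several GABA-A and glycine receptor subunits respond to alcohol directly.

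Subunit usage was read from the level of each gene in CPM per kb of its longest RefSeq transcript. The counts belong to 1 listed Ensembl transcript, which need not be the transcript whose length divides them, so the order of levels between genes is approximate. In the controls 17 of 29 members had a median above 1 CPM per kb, 7 were above 10 CPM per kb, and 3 had a median of 0. SLC6A11, the GABA transporter GAT-3 that is known as an astrocyte transporter, had by far the highest level, 301 ± 40.1 CPM per kb (mean ± SD, n = 11 controls), and lay above every other member in all 28 animals. NLGN2, the adhesion protein of inhibitory postsynapses, followed at 40.2 ± 2.85 CPM per kb, then SLC32A1, the vesicular GABA and glycine transporter, at 38.6 ± 11.9 CPM per kb and GAD1, the main GABA-synthesizing enzyme, at 36.2 ± 13.7 CPM per kb. The order of these 3 genes varied between animals: NLGN2 was above GAD1 in 16 of 28 animals and SLC32A1 was above GAD1 in 20 of 28, or in 10 of 28 per kb of coding sequence.

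**Figure D1:**
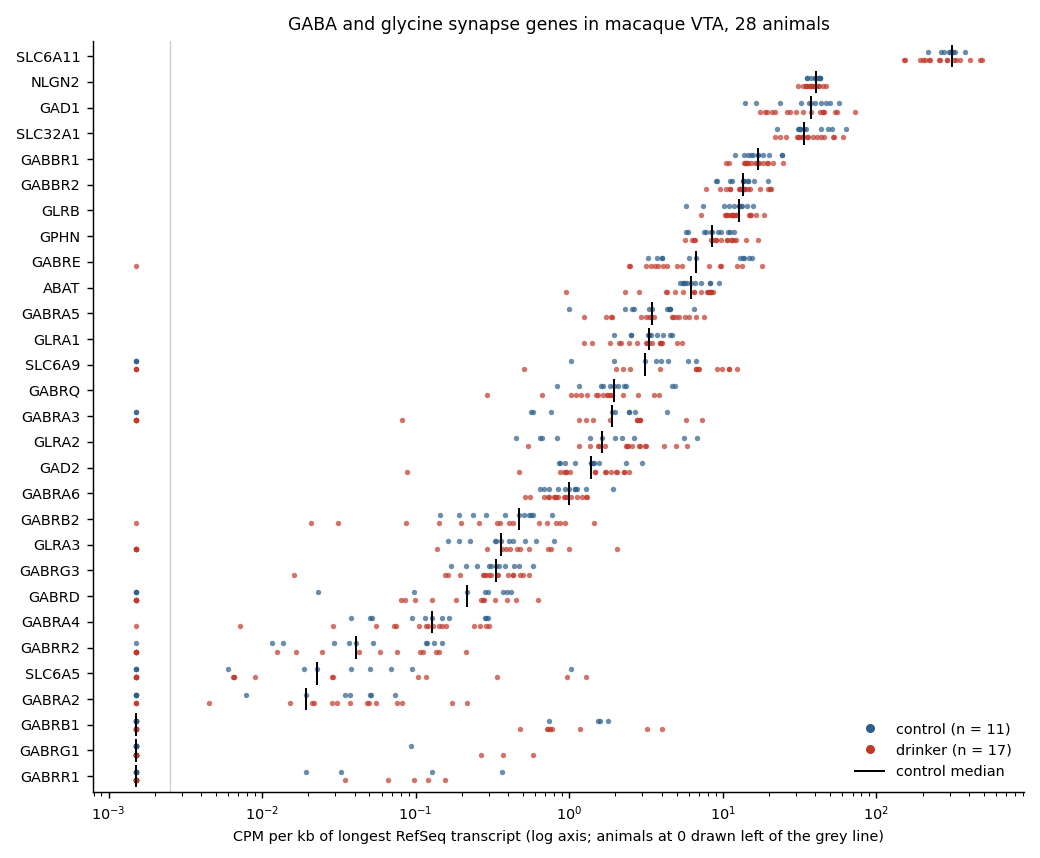
Level of each of the 29 members in CPM per kb of its longest RefSeq transcript (x axis, log scale), 1 point per animal, controls in blue (n = 11) and drinkers in red (n = 17), with the control median as a black bar and genes ordered by it. Animals at 0 are drawn left of the grey line. SLC6A11 stands alone at the top, controls and drinkers overlap for every member, and the lower part of the plot holds genes that are at 0 in some animals.

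The listed transcripts of the 2 enzymes that make GABA differed in level, and counts on their other transcripts are not part of these values. GAD1 (ENSMMUT00000021316.4) lies on chromosome 12 (chr12:57960027-58006388) and GAD2 (ENSMMUT00000017131.4) on chromosome 9 (chr9:27214469-27303983), both on the plus strand of Mmul_10. GAD1 was above GAD2 in all 28 animals, and the ratio of their levels per kb of transcript had a median of 23.1 and a lowest value of 11.1. GAD1 ran from 1156 to 6423 counts and GAD2 from 4 to 193 counts. ABAT, the mitochondrial transaminase that degrades GABA, stood at 6.71 ± 1.40 CPM per kb in controls. SLC6A11 exceeded ABAT in every animal, by a median factor of 45.9 per kb of transcript and 11.3 per kb of coding sequence.

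Among the receptors, those for GABA-B were the highest per kb of transcript. Per kb of coding sequence the glycine receptor subunit GLRB was higher, with a control median of 42.7 CPM per coding kb against 27.7 for GABBR2 and 26.5 for GABBR1. GABBR1 and GABBR2, the subunits that must pair to form a working GABA-B receptor, lay at 17.5 ± 3.97 and 13.3 ± 3.10 CPM per kb in controls. GABBR1 was above GABBR2 in 23 of 28 animals per kb of transcript, with a median ratio of 1.26, but in only 10 of 28 per kb of coding sequence, where the median ratio was 0.963. Their order therefore depended on the length used.

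The 14 listed GABA-A subunits, rho subunits included, were mostly low, and 4 of them had a control median above 1 CPM per kb of transcript. Per kb of coding sequence there were 7, with GABRB2 at 2.42, GABRA6 at 1.87 and GABRG3 at 1.50 CPM per coding kb added. The 4 were GABRE (epsilon) at a median of 6.72 CPM per kb, GABRA5 (alpha-5) at 3.48, GABRQ (theta) at 1.95 and GABRA3 (alpha-3) at 1.89. GABRE was above GABRQ in 27 of 28 animals and above GABRA5 in 19 of 28, so the order of the first of these pairs held in nearly every punch and that of the second did not. GABRA6, the alpha-6 subunit known from cerebellar granule cells, was detected in every animal at 26 to 139 counts, with a control median of 0.995 CPM per kb. Markers of granule cells were uneven beside it, and their summed level ran from 34.6 to 213.5 CPM. NEUROD1 was at 0 in 8 animals and FAT2 at 0 in 19. CBLN3 was at 0 in 1 animal, and ZIC1, ZIC2 and CBLN1 had counts in every animal. The part of these markers in the GABRA6 level was not tested. Below these, GABRB2 (beta-2) had a control median of 0.473 CPM per kb, GABRG3 (gamma-3) 0.332, GABRD (delta) 0.215, GABRA4 (alpha-4) 0.128, GABRR2 (rho-2) 0.0411 and GABRA2 (alpha-2) 0.0195. GABRB1 (beta-1), GABRG1 (gamma-1) and GABRR1 (rho-1) had a control median of 0 and were at 0 in 16, 24 and 19 of 28 animals.

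The glycine receptor was represented by all 4 listed subunits. GLRB, the beta subunit that anchors the receptor to gephyrin, was the most abundant at 11.7 ± 2.95 CPM per kb in controls, and it was above GLRA1, the alpha-1 subunit of the adult receptor, in all 28 animals by a median factor of 3.47. GLRA1 was above GLRA3 in all 28 animals. Its order against GLRA2, the alpha-2 subunit known from the immature receptor, depended on the length used: GLRA1 was higher in 18 of 28 animals per kb of transcript and in 28 of 28 per kb of coding sequence. GPHN, which encodes gephyrin, the scaffold beneath glycine and GABA-A receptors, stood at 8.80 ± 1.99 CPM per kb in controls.

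The listed transcripts of the glycine transporters had counts in some punches and were at 0 in others. SLC6A9 (GlyT1), which is known mainly from glia, was at 0 in 6 animals, 3 of them controls, and reached 1145 counts in a Heavy drinker. SLC6A5 (GlyT2), the marker of glycine-releasing terminals and cells, was at 0 in 9 animals, had a median of 2 counts, and reached 209 counts in a Heavy drinker and 191 in a control. In all, 9 members were at 0 in at least 1 animal and above 50 counts in another: SLC6A5, SLC6A9, GLRA3, GABRA3, GABRA4, GABRB1, GABRB2, GABRE and GABRG1. Of the members, 16 had counts in every animal and none was at 0 in all of them. Of these 9, GABRA4, GABRB2 and GABRE were at 0 in a single animal each.

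To ask whether a history of drinking left a mark on these genes, drinkers were compared with controls across the 28 animals with edgeR's quasi-likelihood test. All 29 members passed the filter on low counts (at least 5 counts in at least 3 animals), and 13769 transcripts were tested in all. No member passed an adjusted p of 0.05, as was the case for every transcript tested (0%), and no member had an unadjusted p under 0.05 against 4.58% of all transcripts. The median log2 difference of the members was -0.02, beside 0.00 over all transcripts, with 13 members higher and 16 lower in drinkers. DESeq2, which called 0.08% of transcripts, and limma voom called no member either.

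The genes of GABA synthesis and loading differed between the arms by less than the spread between animals. GAD1 ran from 50.7 through a median of 135 to 207 CPM in controls and from 63.0 through 121 to 261 CPM in drinkers, and its log2 difference was -0.00 with a standard error (SE) of 0.23. GAD2 ran from 2.43 through 3.93 to 8.41 CPM in controls and from 0.249 through 4.17 to 6.94 CPM in drinkers (log2 difference -0.03, SE 0.31). SLC32A1 ran from 57.0 through 85.4 to 160 CPM in controls and from 54.7 through 88.8 to 151 CPM in drinkers (log2 difference -0.05, SE 0.16). The groups overlapped almost entirely for all 3 genes. The intervals were narrowest for NLGN2, with a log2 difference of -0.06 (SE 0.06), GABBR1 at -0.09 (SE 0.12), GLRB at 0.10 (SE 0.13) and GABBR2 at 0.07 (SE 0.14). They were wide for the sparse subunits, such as GABRB1 at 0.43 (SE 1.26) and GABRR1 at -0.79 (SE 1.07). Since the tissue is bulk, fewer cells of a type and less RNA per cell cannot be told apart in any of these values.

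**Figure D2:**
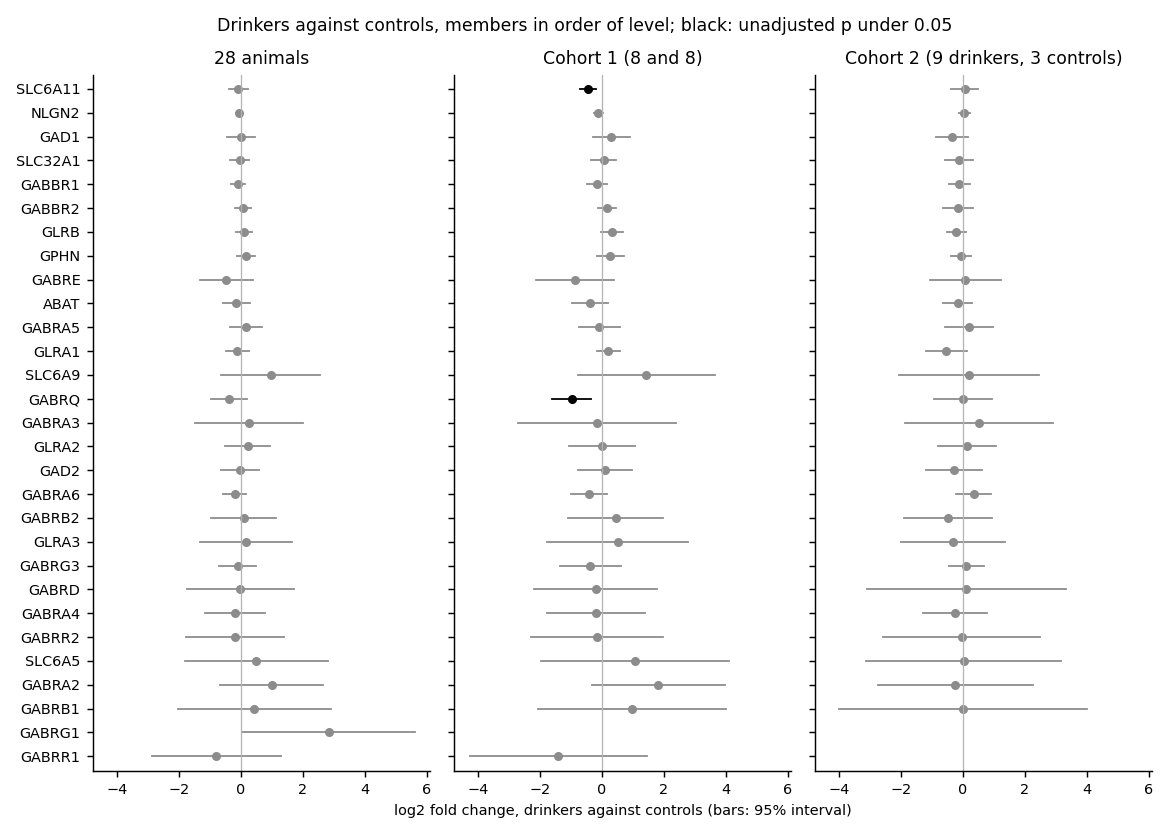
Log2 fold change of drinkers against controls (x axis) for each member in all 28 animals, in cohort 1 and in cohort 2, with 95% intervals as bars and black for an unadjusted p under 0.05. The members cluster around 0 in all 3 panels, and black marks appear only for SLC6A11 and GABRQ in cohort 1. GABRG1 is missing from both cohort panels and GABRR1 from that of cohort 2 because they did not pass the filter there.

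Within cohort 1, where the arms were balanced at 8 and 8, 28 members were tested. None passed the adjusted threshold with edgeR (0.0382% of all 13086 transcripts did). Unadjusted p-values under 0.05 were found for 2 members, both lower in drinkers, against 10.2% of all transcripts and 5.33% in that direction, and the 2 members made up 7.14% of those tested. The median log2 difference over the members was -0.04, beside -0.00 over all transcripts.

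The first of the 2 was SLC6A11. It ran from 460 through a median of 639 to 659 CPM in the cohort 1 controls and from 318 through 446 to 606 CPM in the cohort 1 drinkers. All 8 drinkers lay below the control median and 4 lay below the lowest control, although the groups overlapped. The mean was 607 ± 71.4 CPM in controls and 444 ± 99.4 CPM in drinkers (SD, n = 8 each), a log2 difference of -0.45 (SE 0.13, unadjusted p = 0.00302, adjusted p = 0.204 with edgeR). DESeq2's Wald test gave -0.43 with an adjusted p of 0.0287. That tool called 4.75% of the 4964 transcripts it kept for adjustment, 2.1% of them lower in drinkers, and SLC6A11 was the single member among its calls. Over its 11 alternatives the adjusted p ranged from 0.0287 to 0.614.

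The second was GABRQ, the theta subunit, which is known from monoamine and hypothalamic neurons. It ran from 10.3 through 13.0 to 30.3 CPM in the cohort 1 controls and from 1.87 through 7.42 to 12.3 CPM in the drinkers. Here 6 of 8 drinkers lay below the lowest control and all 8 below the control median. The log2 difference was -0.98 (SE 0.33, unadjusted p = 0.00804, adjusted p = 0.259 with edgeR), and the adjusted p ranged from 0.172 to 0.614 over its alternatives. GABRE, the epsilon subunit, had a log2 difference of -0.86 with an SE of 0.64 in the same animals. Marker scores, the mean z of the log2 CPM of a list, also differed in median between these arms. Over the cohort 1 animals the Pearson r of SLC6A11 and GABRQ was -0.51 and -0.48 with the general neuron score. It was 0.14 and -0.02 with the oligodendrocyte score and 0.10 and 0.18 with the astrocyte score. The median in cohort 1 controls and drinkers was -0.20 and 0.29 for general neurons, 0.40 and -0.09 for oligodendrocytes, 0.15 and -0.08 for endothelial cells, and -0.08 and -0.20 for astrocytes. With the oligodendrocyte score in the fit SLC6A11 stood at -0.45 (unadjusted p = 0.00423) and GABRQ at -1.03 (unadjusted p = 0.00498), and with the astrocyte score at -0.44 (unadjusted p = 0.00408) and -0.93 (unadjusted p = 0.0123). With the neuron score SLC6A11 stood at -0.38 (unadjusted p = 0.0247) and GABRQ at -0.94 (unadjusted p = 0.0248).

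GAD1, GAD2 and SLC32A1 differed less in cohort 1 than between animals of 1 arm. GAD1 had a median of 133 CPM in controls and 163 CPM in drinkers (log2 difference 0.31, SE 0.31), GAD2 3.91 and 4.49 CPM (0.10, SE 0.44), and SLC32A1 82.5 and 93.3 CPM (0.05, SE 0.21). All 4 glycine receptor subunits had positive differences, from 0.01 to 0.50, beside 49.4% positive over all transcripts, and none had an unadjusted p under 0.05.

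In cohort 2, with 9 drinkers and 3 controls, 27 members were tested. No member passed either threshold, against 0% of all 12785 transcripts for the adjusted and 3.76% for the unadjusted p. SLC6A11 measured 632, 686 and 798 CPM in the 3 controls and ran from 433 through 699 to 1027 CPM in the drinkers, with 3 drinkers below all controls and 3 above all of them (log2 difference 0.05, SE 0.22). GABRQ measured 5.39, 7.50 and 31.6 CPM in the controls and ran from 9.61 through 11.5 to 25.0 CPM in the drinkers, so that a single control gave the group its mean (log2 difference 0.00, SE 0.48). GAD1 measured 85.6, 143 and 170 CPM in the controls and ran from 63.0 through 98.2 to 163 CPM in the drinkers (log2 difference -0.35, SE 0.27). That value was -0.59 without control 11, -0.13 without control 9 and -0.04 with the neuron score in the fit, and its unadjusted p ran from 0.0601 to 0.905 over the alternatives with edgeR, DESeq2 and limma. Of the 4 glycine receptor subunits 1 had a positive and 3 had negative differences, from -0.54 to 0.12. GLRB measured 63.9, 65.6 and 66.9 CPM in the controls and ran from 35.9 through 57.4 to 76.5 CPM in the drinkers, with 8 of 9 drinkers below all controls (log2 difference -0.21, SE 0.15, unadjusted p = 0.191 with edgeR).

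The difference of the drinker effect between the cohorts was tested as an interaction. No member passed an adjusted p of 0.05 (0.0145% of all transcripts did), and 1 member, GABRG1, had an unadjusted p under 0.05 against 9.64% of all transcripts. GABRG1 had counts in 4 animals only, 52 in a Heavy drinker, 25 in the Low drinker and 24 in a Binge drinker, and 8 in a control of cohort 2, so its fitted fold changes carry no size. Without that control its interaction had an unadjusted p of 1.00. For SLC6A11 the effect in cohort 2 minus that in cohort 1 was 0.50 on the log2 scale (SE 0.25, unadjusted p = 0.059), for GABRQ 0.99 (SE 0.59, unadjusted p = 0.108), for GLRA1 -0.75 (SE 0.37, unadjusted p = 0.056) and for GLRB -0.54 (SE 0.27, unadjusted p = 0.0552). For controls and drinkers in turn, the medians of the general neuron score were -0.20 and 0.29 in cohort 1 and 0.49 and -0.29 in cohort 2. With it in the fit the interaction was -0.14 for GLRA1 (unadjusted p = 0.74), 0.13 for GLRB (unadjusted p = 0.56), 0.32 for SLC6A11 (unadjusted p = 0.291) and 0.69 for GABRQ (unadjusted p = 0.307). Those of the astrocyte score were -0.08 and -0.20 in cohort 1 and -0.13 and 0.42 in cohort 2. With that score in the fit the interaction was 0.35 for SLC6A11 (unadjusted p = 0.18), 0.83 for GABRQ (unadjusted p = 0.189), -0.68 for GLRA1 (unadjusted p = 0.102) and -0.32 for GLRB (unadjusted p = 0.213). A difference between the cohorts in the response of these genes was therefore not shown.

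The cohorts themselves were compared with arm held in the fit. No member passed the adjusted threshold with edgeR (0.0436% of all transcripts did), and 3 members had an unadjusted p under 0.05, all higher in cohort 2, against 9.8% of all transcripts and 5.54% in that direction. The 3 members were SLC6A11, ABAT and GABRQ. The median log2 difference over the members was 0.10, beside 0.02 over all transcripts.

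SLC6A11 ran from 318 through 547 to 659 CPM in the 16 animals of cohort 1 and from 433 through 692 to 1027 CPM in the 12 of cohort 2. Of the cohort 2 animals 11 lay above the cohort 1 median and 8 above its highest animal. The log2 difference was 0.55 (SE 0.13, unadjusted p = 0.000163, adjusted p = 0.105 with edgeR), a fold of 1.47, and DESeq2 called it (0.53, adjusted p = 0.00427) among 0.885% of the transcripts it kept (0.541% higher in cohort 2). It was 0.71 among drinkers alone (unadjusted p = 0.000565) and 0.21 among controls alone (unadjusted p = 0.111), and the adjusted p ran from 0.00427 to 1.00 over all alternatives. ABAT ran from 6.49 through 37.5 to 56.6 CPM in cohort 1 and from 19.3 through 54.5 to 63.9 CPM in cohort 2, with 11 of 12 cohort 2 animals above the cohort 1 median (log2 difference 0.58, SE 0.20, unadjusted p = 0.0079, adjusted p = 0.264 with edgeR). GABRQ ran from 1.87 through 11.3 to 30.3 CPM in cohort 1 and from 5.39 through 11.4 to 31.6 CPM in cohort 2 (log2 difference 0.67, SE 0.30, unadjusted p = 0.0323, adjusted p = 0.437 with edgeR). The cohort medians of GABRQ were nearly equal, its difference was 0.97 among drinkers alone and -0.01 among controls alone, and it was 0.52 (unadjusted p = 0.129) without control 11.

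Several marker scores moved with the cohort. The median of the astrocyte score was -0.11 in cohort 1 and 0.15 in cohort 2. That score gives equal weight to 6 tested markers. Of these AQP4 was at 0 in 13 of the 16 animals of cohort 1 and in 5 of the 12 animals of cohort 2. The summed level of the 8 astrocyte markers ran from 1657 to 2480 CPM in cohort 1 and from 1781 to 2784 CPM in cohort 2, with medians of 2192 and 2165 CPM. With the astrocyte score in the fit, the cohort difference was 0.41 for SLC6A11 (unadjusted p = 0.00385), 0.43 for ABAT (unadjusted p = 0.0611) and 0.52 for GABRQ (unadjusted p = 0.0995). The median of the general neuron score was 0.20 in cohort 1 and -0.13 in cohort 2, and that of the endothelial score was 0.03 and 0.31. The oligodendrocyte score had medians of 0.11 and -0.08. With the neuron score in the fit the cohort difference was 0.51 for SLC6A11 (unadjusted p = 0.000233), 0.58 for ABAT (unadjusted p = 0.00965) and 0.55 for GABRQ (unadjusted p = 0.0691), and the part of the endothelial score was not tested. SLC6A11 itself had a Pearson r of 0.49 with the astrocyte score over 28 animals (rho = 0.43, permutation p = 0.00809 and 0.0235, adjusted p = 0.237 and 0.373 over all transcripts), with r = 0.10 in cohort 1 and 0.58 in cohort 2, and with r = 0.22 (permutation p = 0.278) once the 2 animals with the most extreme scores were left out. Against the neuron score its r was -0.39 (rho = -0.37, permutation p = 0.041 and 0.0568, adjusted p = 0.26 and 0.335).

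**Figure D3:**
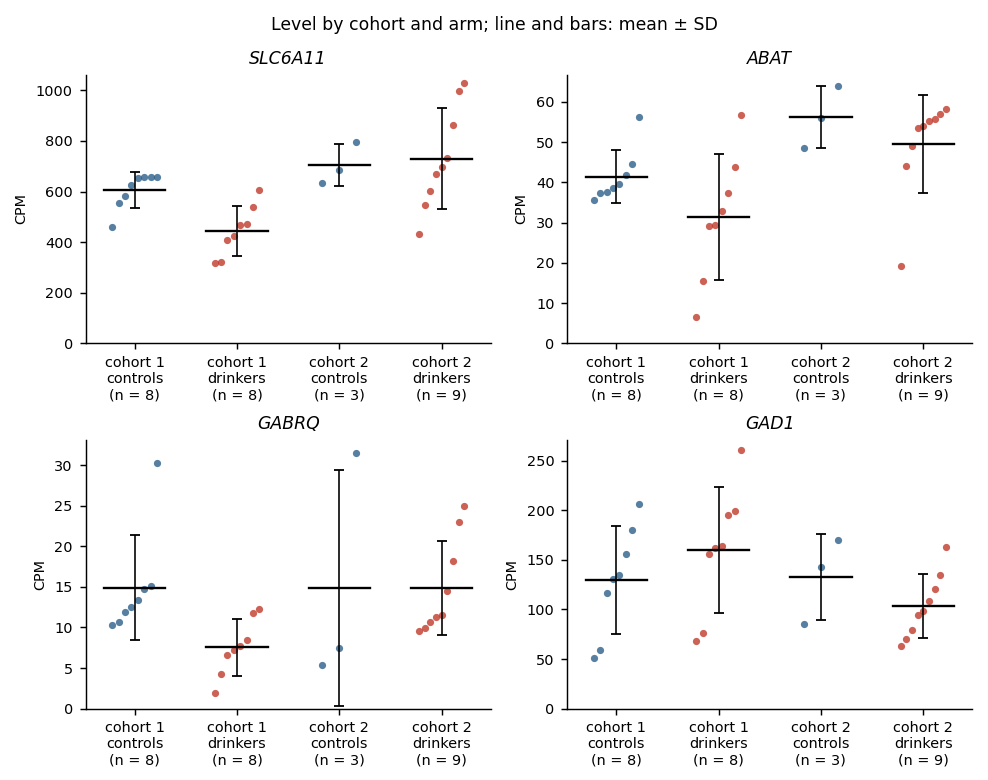
CPM of SLC6A11, ABAT, GABRQ and GAD1 (y axes, from 0) in the 4 sets of animals formed by cohort and arm, 1 point per animal, with the mean as a line and the SD as bars. SLC6A11 and ABAT lie higher in cohort 2, the cohort 1 drinkers lie lowest for SLC6A11 and GABRQ, and 1 control in each cohort stands apart at about 30 CPM for GABRQ.

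The reference sequences around the start of these 3 genes are printed because they are the members with an unadjusted p under 0.05 between the cohorts. They come from RefSeq on the rhesus assembly Mmul_10, the build the authors used, on the plus strand, and each spans the 250 bases before the annotated start and the first 30 bases after it. Capitals mark exact matches on either strand to the TATA box searched as TATAAA, the CCAAT box by its own letters, and the GC box searched as GGGCGG. A GC box on the minus strand reads CCGCCC in the printed strand, and a CCAAT box there reads ATTGG. SLC6A11 starts on chromosome 2 (chr2:142228611-142228890), ABAT on chromosome 20 (chr20:8716171-8716450) and GABRQ on the X chromosome (chrX:148640708-148640987).
SLC6A11: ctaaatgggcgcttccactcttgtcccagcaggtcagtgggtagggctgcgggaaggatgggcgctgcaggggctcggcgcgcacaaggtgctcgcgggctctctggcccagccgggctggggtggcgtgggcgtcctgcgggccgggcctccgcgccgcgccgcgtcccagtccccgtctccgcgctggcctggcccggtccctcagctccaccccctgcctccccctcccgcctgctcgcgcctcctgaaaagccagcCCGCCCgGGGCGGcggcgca
ABAT: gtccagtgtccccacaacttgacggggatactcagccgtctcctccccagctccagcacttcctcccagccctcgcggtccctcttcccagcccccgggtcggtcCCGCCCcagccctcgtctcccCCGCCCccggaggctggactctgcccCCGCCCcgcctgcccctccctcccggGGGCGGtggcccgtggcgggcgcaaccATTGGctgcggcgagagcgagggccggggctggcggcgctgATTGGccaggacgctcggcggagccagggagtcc
GABRQ: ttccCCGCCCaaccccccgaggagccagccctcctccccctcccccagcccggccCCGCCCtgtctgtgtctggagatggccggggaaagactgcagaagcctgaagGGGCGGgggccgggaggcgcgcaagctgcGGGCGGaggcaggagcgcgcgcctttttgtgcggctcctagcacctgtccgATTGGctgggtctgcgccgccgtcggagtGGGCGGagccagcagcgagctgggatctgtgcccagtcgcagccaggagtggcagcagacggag
The 3 windows were rich in G and C, at 76.07%, 75.36% and 72.14%, against a median of 60% over the 15988 promoters read in the same way. None held TATAAA, which 8.86% of all promoters did. GGGCGG, present in 52.4% of all promoters, occurred 2 times in SLC6A11, 4 times in ABAT and 5 times in GABRQ. CCAAT, present in 33.3%, occurred 2 times in ABAT and 1 time in GABRQ, in each case on the minus strand, and not in SLC6A11. These are matches of letters in a short window and not shown binding sites.

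Drinking category was then examined with all 5 levels and cohort in a single fit. Between Very Heavy drinkers and controls no member passed the adjusted threshold, nor did any transcript (0%), and 3 members had an unadjusted p under 0.05, all lower in Very Heavy drinkers, against 6.49% of all transcripts and 3.71% in that direction. Between Heavy drinkers and controls there were 2 such members, 1 in each direction, against 7.28%, and again 0% passed adjustment. Between Very Heavy and Heavy drinkers there were 3, all lower in Very Heavy drinkers, against 6.27% and 2.98% in that direction, and 0% passed adjustment. GABRG1 is among the members in all 3 comparisons on the strength of the 4 animals given above, and without the Heavy drinker that had 52 counts its difference between Heavy drinkers and controls turned from positive to negative and that between Very Heavy and Heavy drinkers had an unadjusted p of 1.00. The medians over the members were -0.17 for Very Heavy against Control, 0.20 for Heavy against Control and -0.35 for Very Heavy against Heavy, beside -0.02, -0.01 and -0.00 over all transcripts.

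ABAT gave the lowest of these p-values among the genes present in all animals. It ran from 35.7 through 41.9 to 63.9 CPM in the 11 controls and from 6.49 through 49.1 to 57.0 CPM in the 9 Very Heavy drinkers. The Very Heavy drinkers split: the 4 lowest values of all 28 animals were Very Heavy drinkers at 6.49, 15.6, 19.3 and 29.1 CPM, whereas the other 5 lay between 49.1 and 57.0 CPM, inside the control range. In cohort 1 all 3 Very Heavy drinkers lay below all 8 controls, and in cohort 2 it was 1 of 6. Library totals of the 4 low animals, in order of rising ABAT, were 14338555, 24845490, 16421212 and 18653244 counts. Those of the other 5 lay between 21701239 and 24746670 counts, and the part of library size was not tested. With cohort held, the log2 difference was -0.74 (SE 0.25, unadjusted p = 0.00608, adjusted p = 0.559 with edgeR). Without the cohort term it was -0.27 (unadjusted p = 0.322), so the size depended on that term. The astrocyte score was -0.36, -0.39 and -0.50 in the 3 lowest of these animals, 0.11 in the fourth low one and between 0.01 and 0.57 in the 5 high ones, so the fourth lay inside the range of the high ones. The same 3 animals were the lowest Very Heavy drinkers for SLC6A11, at 407, 425 and 433 CPM. Over all 28 animals ABAT had an r of 0.42 with that score (rho = 0.49, permutation p = 0.0312 and 0.00926, adjusted p = 0.385 and 0.291 over all transcripts), with r = 0.26 in cohort 1 and 0.38 in cohort 2, and r = 0.49 (permutation p = 0.00946) when the 2 most extreme animals were left out. With the score in the fit the difference between Very Heavy drinkers and controls was -0.86 (unadjusted p = 0.000918, adjusted p = 0.404 with edgeR). The 5 Heavy drinkers had 29.5, 33.0, 37.3, 43.9 and 55.7 CPM (log2 difference from controls -0.14, SE 0.26).

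SLC6A11 had negative differences from controls in both categories once cohort was held, short of the adjusted threshold in each. The 5 Heavy drinkers had 318, 322, 540, 547 and 606 CPM, all below the control median of 653 CPM, and the log2 difference was -0.41 (SE 0.15, unadjusted p = 0.0105, adjusted p = 0.569 with edgeR). It was -0.31 without Heavy drinker 1 (unadjusted p = 0.0577) and likewise -0.31 without Heavy drinker 2 (unadjusted p = 0.0558). The 9 Very Heavy drinkers ran from 407 through 603 to 862 CPM (log2 difference -0.28, SE 0.14, unadjusted p = 0.0467, adjusted p = 0.768 with edgeR), and -0.11 without the cohort term (unadjusted p = 0.466). Very Heavy and Heavy drinkers differed by 0.13 (SE 0.17). The 2 Binge drinkers, both of cohort 2, had the highest values of all 28 animals, 998 and 1027 CPM, and the Low drinker had 470 CPM. No contrast was made for the Binge and Low drinkers. Between Heavy drinkers and controls all 6 tested general neuron markers had positive differences (median log2 difference 0.52). Of the 6 tested astrocyte markers 3 had positive and 3 had negative differences.

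**Figure D4:**
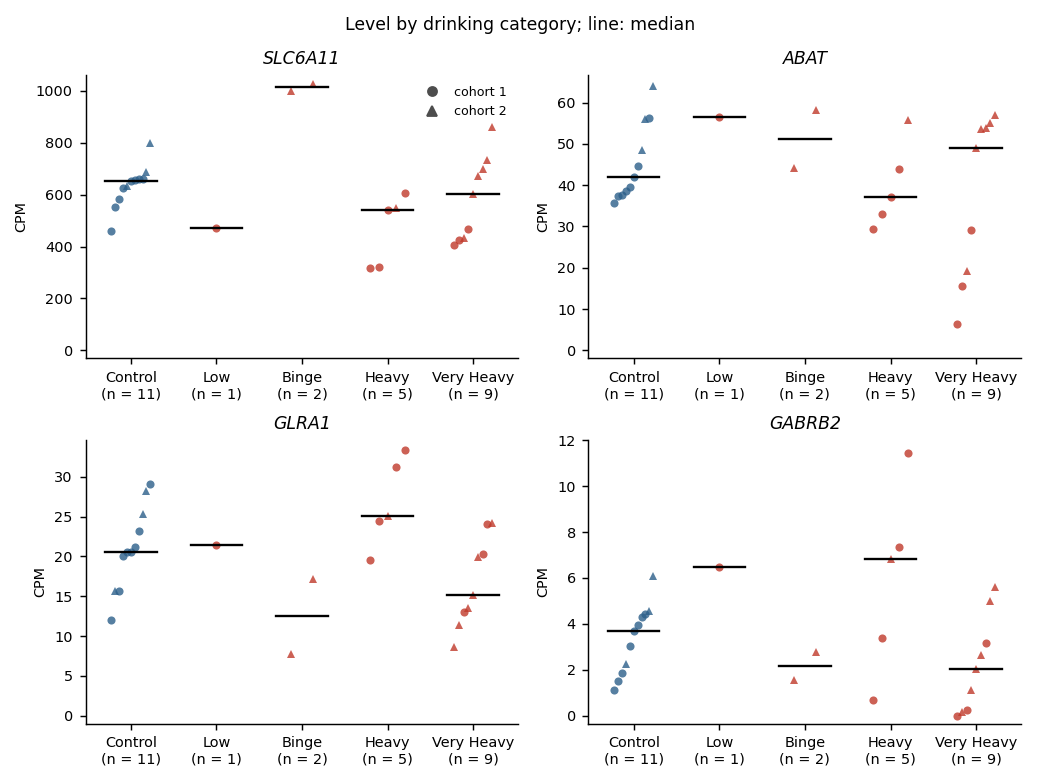
CPM of SLC6A11, ABAT, GLRA1 and GABRB2 (y axes) by drinking category, 1 point per animal, circles for cohort 1 and triangles for cohort 2, with the median as a line. The 2 Binge drinkers top the SLC6A11 panel, 4 Very Heavy drinkers lie lowest for ABAT, and the Heavy drinkers lie above most Very Heavy drinkers for GLRA1.

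Among the genes with counts in most animals, GLRA1 and GABRB2 had the lowest p-values between Very Heavy and Heavy drinkers. The differences of GAD2 and GLRA3 were larger than that of GLRA1 but had wider errors, and GLRA3 stood at -1.64 (SE 1.16). GLRA1 measured 19.5, 24.5, 25.0, 31.2 and 33.4 CPM in the Heavy drinkers and ran from 8.68 through 15.2 to 24.2 CPM in the Very Heavy drinkers, with controls from 12.1 through 20.5 to 29.1 CPM. All 9 Very Heavy drinkers lay below the Heavy median and 5 lay below the lowest Heavy drinker. The log2 difference was -0.65 (SE 0.25, unadjusted p = 0.0158, adjusted p = 0.66 with edgeR). GABRB2 measured 0.681, 3.40, 6.81, 7.35 and 11.4 CPM in the Heavy drinkers and ran from 0 through 2.02 to 5.63 CPM in the Very Heavy drinkers, again with all 9 below the Heavy median (log2 difference -1.88, SE 0.81, unadjusted p = 0.0293, adjusted p = 0.728 with edgeR). The general neuron score was higher in Heavy drinkers, with a median of 0.43 against -0.13 in Very Heavy drinkers. With it in the fit the difference was -0.44 for GLRA1 (unadjusted p = 0.091) and -1.76 for GABRB2 (unadjusted p = 0.0825).

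GAD1, GAD2 and SLC32A1 had no unadjusted p under 0.05 by category. Against controls, the log2 differences in Very Heavy drinkers were -0.05 (SE 0.27), -0.52 (SE 0.40) and -0.01 (SE 0.20), and in Heavy drinkers 0.30 (SE 0.30), 0.40 (SE 0.41) and -0.05 (SE 0.22). GAD2 ran from 4.17 through 4.81 to 6.45 CPM in the Heavy and from 0.249 through 2.88 to 6.94 CPM in the Very Heavy drinkers, 5 of which lay below every Heavy drinker (log2 difference -0.92, SE 0.49, unadjusted p = 0.0702 with edgeR). All 9 Very Heavy drinkers lay below the Heavy median for GAD1 (log2 difference -0.35, SE 0.34), and SLC32A1 differed by 0.04 (SE 0.24). GAD2 was at 4 counts in 1 Very Heavy drinker, where GAD1 had 2496 counts. The list of 37 other genes of inhibitory synapses, of which 30 or 31 were tested in each comparison, held no gene past the adjusted threshold in any of the 8 comparisons.

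Because punches hold different mixes of cells, each member was set against scores of dopamine neuron, oligodendrocyte and astrocyte markers across the 28 animals, which gave 87 correlations. Adjusted over these 87 pairs, as first planned, GLRB and GABBR2 passed with the oligodendrocyte score (adjusted p = 0.04915 for each, permutation test of Pearson's r). An adjustment over all 13769 transcripts, for each score on its own, was chosen after seeing the data and is used below. With it no member passed with any of the 3 scores. Over all transcripts 0.487% passed with the dopamine neuron score, 0.37% with the oligodendrocyte score and 0.312% with the astrocyte score. An unadjusted p under 0.05 was found for 4, 5 and 6 of the 29 members, against 8.23%, 12.3% and 11.2% of all transcripts. The lowest p-values belonged to GLRB and GABBR2, both negative against the oligodendrocyte score. GLRB had a Pearson r of -0.59 (permutation p = 0.00092, adjusted p = 0.0874) and a Spearman rho of -0.59 (permutation p = 0.00126, adjusted p = 0.0997), with r of -0.58 in cohort 1 and -0.81 in cohort 2. GABBR2 had an r of -0.59 (permutation p = 0.00113, adjusted p = 0.0949) and a rho of -0.57 (permutation p = 0.00222, adjusted p = 0.123), with r of -0.42 and -0.74 in the cohorts. Without the 2 animals farthest from the median score r was -0.66 for GLRB and -0.67 for GABBR2.

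A score of general neuron markers was added after these values had been seen, as 29 further correlations. Of all transcripts 17.5% had an unadjusted p under 0.05 with it and 3.54% passed adjustment, and of the members 6 and 1. The 1 member was GLRB, with r = 0.83 (permutation p = 1e-05, the smallest that these permutations can give, adjusted p = 0.00212) and rho = 0.73 (permutation p = 2e-05, adjusted p = 0.00475). The relation was of similar size within each cohort, r = 0.82 in cohort 1 and 0.85 in cohort 2, and r was 0.77 without the 2 animals farthest from the median score. GLRA1 (r = 0.55, rho = 0.52, permutation p = 0.00248 and 0.00481, adjusted p = 0.0595 and 0.105) and GABBR2 (r = 0.53, rho = 0.47, permutation p = 0.00319 and 0.012, adjusted p = 0.0688 and 0.164) did not pass. Adjusted over the 29 added correlations alone, GLRA1 and GABBR2 passed with r (adjusted p = 0.03084 for each). They did not pass with rho (adjusted p = 0.0697 and 0.116). The score gives equal weight to 6 tested markers, of which SYT1 was at 0 in 24 animals and ENO2 in 11.

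GAD1, GAD2 and SLC32A1 did not pass against any score. For GAD1 r was -0.49 against the dopamine neuron score (rho = -0.42, permutation p = 0.00763 and 0.0278, adjusted p = 0.35 and 0.559). Within cohort 1 r was -0.73 (permutation p = 0.00152) and within cohort 2 it was 0.15 (permutation p = 0.651), a difference that was not tested, and leaving out the 2 animals with the most extreme scores gave r = -0.33 (permutation p = 0.106). Against the astrocyte score r was also -0.49 (rho = -0.46, permutation p = 0.00781 and 0.0146, adjusted p = 0.233 and 0.322), at -0.51 in cohort 1 and -0.37 in cohort 2, and -0.38 (permutation p = 0.0587) with the 2 most extreme animals left out.

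**Figure D5:**
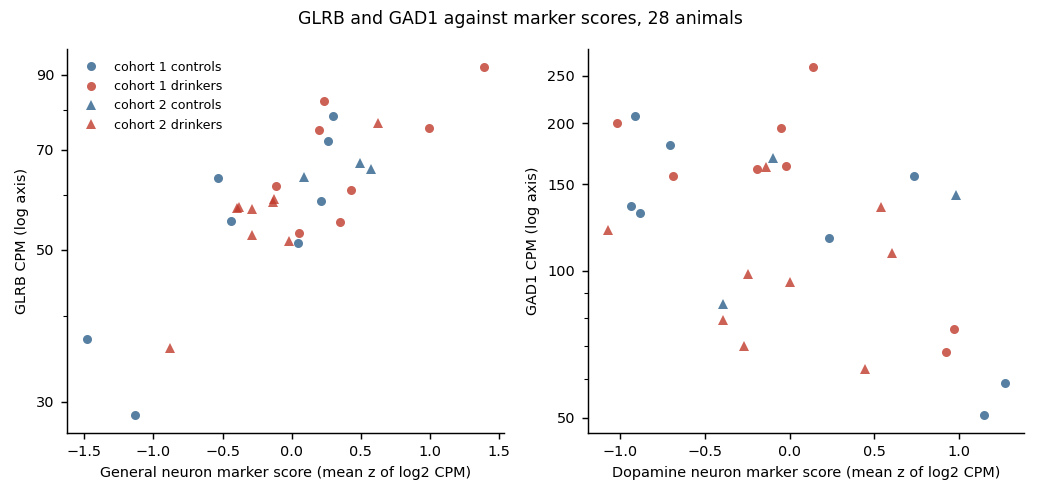
CPM (y axes, log scale) of GLRB against the general neuron score and of GAD1 against the dopamine neuron score (x axes, mean z of log2 CPM), 1 point per animal, circles for cohort 1, triangles for cohort 2, controls in blue and drinkers in red. GLRB rises with the score in both cohorts (r = 0.82 and 0.85), while for GAD1 the circles slope down and the triangles show no clear slope (r = -0.73 and 0.15).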

How the data were processed

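One library was made from the VTA punch of each of 28 animals. Per the labels and the study's methods, the authors trimmed paired reads with Trim Galore 0.6.7, quantified them with Salmon 1.9.0 against Mmul_10, normalized with DESeq2 1.36.0 for their own tests, and deposited estimated counts without normalization, 1 Ensembl transcript per gene symbol. The 1 entry without a symbol (1.155e-05% of counts) was left out. Category came from the labels and cohort from the study's source data, controls 9 to 11 by elimination.

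Estimated counts were rounded to whole numbers and kept with at least 5 counts in at least 3 of the animals fitted. Comparisons used edgeR 4.0.16 (TMM, quasi-likelihood test, Benjamini-Hochberg adjustment over all transcripts tested, threshold 0.05) in R 4.3.3, checked on simulated data. P-values are two-sided. Alternatives were DESeq2 1.42.0, limma 3.58.1 (voom), other scaling and filters, GC content (values for 96.38% of transcripts), marker scores as covariates, other samples, and animals left out. Scores are mean z of log2 CPM (prior count 2), and correlations used 100000 permutations, adjusted over all transcripts for each score. Levels were divided by RefSeq transcript length (Mmul_10).

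Values by group were given for GAD1, GAD2, SLC32A1 and members with an unadjusted p under 0.05, at most 8 per comparison, and the rest by ranges and counts. Members and lists were chosen with earlier results of these data known. Some further receptor subunits and transporters are not reported here. Each library is 1 animal. At most 1.77% of entries had identical counts in any 2 libraries.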

Additional observations from a re-analysis of the deposited data

Results flagged for a closer look

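Within 133 groups of 4 to 10 animals, 11 held 1 animal far from the others by Dixon's criterion on log2 CPM, spread over 8 members. Chance flags about 1 in 20 groups. Very Heavy drinker 2 accounted for 5 of them: GABRE was at 0 CPM there, against 7.78 to 39.3 CPM in the other cohort 1 drinkers and 10.1 to 57.3 CPM in the other Very Heavy drinkers, GABRG3 was at 0.104 CPM, against at least 0.988 and 1.25 CPM in the same groups, and GABRQ was at 1.87 CPM, against 7.17 to 23.0 CPM in the other Very Heavy drinkers.

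ABAT was at 19.3 CPM in Very Heavy drinker 5, against 44.1 to 58.2 CPM in the other cohort 2 drinkers. GAD2 was at 0.249 CPM in Very Heavy drinker 1, against 2.63 to 6.45 CPM in the other cohort 1 drinkers. GLRA3 was at 0 CPM in Very Heavy drinker 6, against 1.20 to 8.65 CPM in the other cohort 2 drinkers. Among cohort 1 controls, GABRA5 was at 2.81 CPM in control 5 (6.51 to 12.9 CPM in the others), GABRQ at 30.3 CPM in control 3 (10.3 to 15.1 CPM) and SLC6A5 at 7.11 CPM in control 6 (0 to 0.477 CPM).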

How the results depend on the processing

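No member was called under 114 of 116 alternatives to the counts of members called. The exceptions were DESeq2's test in cohort 1 and between the cohorts, with 1 member called in each, SLC6A11. Heavy drinkers were left out 1 at a time in the comparisons of Heavy drinkers with controls and with Very Heavy drinkers. Controls of cohort 2 were left out in the same way within cohort 2, between the cohorts and for the interaction. None of these fits changed a count of 0, and no animal was left out of the other comparisons. Of 361 values of named members under alternatives, 335 kept their direction and side of the threshold, 24 reversed and 2 became called.

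For drinkers against controls in 28 animals, GAD1 went to 0.00825 with DESeq2, 0.00517 with voom, 0.00858 with DESeq2 size factors, 0.00402 with at least 10 counts in every animal, 0.0169 with the oligodendrocyte score, 0.0166 with the GC correction, 0.125 with the astrocyte score and 0.0564 with cohort as covariate. GAD2 went to 0.00632 with the GC correction and 0.0208 with the astrocyte score, and SLC32A1 to 0.0748 and 0.0342 under the same. In cohort 1, GAD2 went to -0.0891 with voom and -0.00519 with the neuron score. In cohort 2, SLC32A1 went to 0.0481 with the astrocyte score and 0.0797 without control 10, and GAD2 to 0.423 with the neuron score and 0.304 without control 10. Leaving out 1 control at a time there gave -0.247 to 0.0797 for SLC32A1 and -0.628 to 0.304 for GAD2. Between cohorts, SLC32A1 went to 0.00283 with the astrocyte score, GAD2 to -0.0378 in drinkers only and -0.0918 without control 10 (up to 0.174 without another), and in controls only GABRQ went to -0.0125 and GAD1 to 0.0296. GABRG1 in Heavy drinkers against controls went to -1.66 without Heavy drinker 2, which held all of its counts in that group, and ran up to 6.02 without each of the others. The cause of the other reversals was not tested.

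Adjusted over the 87 pairs of member and score, as first planned, 2 correlations passed, GLRB and GABBR2 with the oligodendrocyte score. They numbered 0 when adjusted over all transcripts, an adjustment chosen after seeing the data, 0 with Spearman's rho, 0 in cohort 1 alone and 1 in cohort 2 alone, where fewer animals enter. The 1 in cohort 2 was GLRA3 with the oligodendrocyte score. Without the 2 animals farthest from the median score, GLRB and GABBR2 again passed over the 87 pairs (adjusted p = 0.01131 for each, permutation test). The number of members above 1 CPM per kb, 17, was 21 with coding lengths, and that of GABA-A subunits, 4, was 7. No paired analysis was possible because the labels give each animal its own number and do not say which control was yoked to which drinker. The 3 controls of cohort 2, and the gaps in sparse subunits, limit what could be detected.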
